A study of Mus musculus with 3 samples.

Results

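The 10 genes described here, Gem, Rem2, Nptx2, Inhba, Pcsk1, Vgf, Scg2, Nrn1, Ptgs2 and Plk2, are late-response genes of neuronal activity: effectors that neurons make after the first wave of induced transcription factors. They were chosen by name, as every probe whose gene name in the scanner files equals one of the 10. That gave 13 probes on 22 spots, out of 39429 probes, and all 13 were among the 27630 probes kept after the filter on dim signals. At 1 probe per gene, the one with the highest average intensity, they are 10 of 17964 genes tested.

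Hippocampal total RNA came from adult male mice at postnatal day 120. The mothers were 15 to 18 months old (AMA, advanced maternal age) or 3 months old (YMA, young maternal age, the control) when paired, and the fathers of both groups were 3 months old. No strain, allele or drug is named in the labels; all mice were killed by cervical dislocation. Each RNA sample was a pool of 3 males, with 3 pools per group, and each of 3 two-colour arrays carried 1 AMA pool in the dye Cy3 and 1 YMA pool in the dye Cy5. The dyes were never swapped, so dye and maternal age cannot be told apart in any value below. The labels do not say whether litters were shared between pools, and p-values measure the spread between these 3 pairs of pools.

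When a neuron fires strongly, calcium entry and kinases activate transcription factors already present in the cell, CREB among them, and genes such as Fos, Egr1 and Npas4 are transcribed within minutes. The proteins they encode then act with CREB on a later set of genes, whose products work at the membrane, in dense-core vesicles or outside the cell and adjust channels, synapses and peptide release. In the hippocampus these late genes are known from seizures, learning and long-term potentiation.

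The sequences that bear on this wiring are the windows before the transcription starts. RefSeq promoter windows on GRCm38.p6, from 250 bases before the start to 50 after it, were at hand for 6 of the 10 genes (Rem2, Inhba, Pcsk1, Scg2, Ptgs2 and Plk2). The full cAMP response element TGACGTCA, the palindrome that CREB binds, was present in 3 of the 6, against 1.79% of 32851 windows. The 250 bases before the start of these 3 genes are shown with TGACGTCA and its shorter form TGACG in capitals, and with them the Inhba window, whose capitals mark a Mef2 motif that overlaps a TATAAA box.
Pcsk1 promoter, chr13:75089607-75089856, plus strand: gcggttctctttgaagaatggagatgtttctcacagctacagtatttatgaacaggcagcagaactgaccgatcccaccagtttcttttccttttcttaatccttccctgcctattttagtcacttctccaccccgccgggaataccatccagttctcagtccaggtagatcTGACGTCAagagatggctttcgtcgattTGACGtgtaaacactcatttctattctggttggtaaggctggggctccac
Scg2 promoter, chr1:79440027-79440276, minus strand: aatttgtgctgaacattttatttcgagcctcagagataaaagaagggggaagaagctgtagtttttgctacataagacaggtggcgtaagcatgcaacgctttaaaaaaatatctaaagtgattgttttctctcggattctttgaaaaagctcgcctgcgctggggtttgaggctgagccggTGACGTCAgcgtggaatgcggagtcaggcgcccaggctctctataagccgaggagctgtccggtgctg
Plk2 promoter, chr13:110394794-110395043, plus strand: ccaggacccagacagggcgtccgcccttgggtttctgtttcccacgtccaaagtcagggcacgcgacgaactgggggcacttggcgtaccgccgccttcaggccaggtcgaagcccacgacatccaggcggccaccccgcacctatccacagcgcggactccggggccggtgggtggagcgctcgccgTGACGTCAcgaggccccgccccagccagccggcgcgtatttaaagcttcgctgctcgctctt
Inhba promoter, chr13:16011601-16011850, plus strand: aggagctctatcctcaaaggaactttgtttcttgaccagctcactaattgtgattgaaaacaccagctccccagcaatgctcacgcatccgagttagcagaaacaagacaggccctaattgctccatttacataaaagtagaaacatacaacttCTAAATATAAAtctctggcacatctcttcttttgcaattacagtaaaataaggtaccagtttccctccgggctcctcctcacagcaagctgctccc
The full element begins 78 bases before the start in Pcsk1, 68 in Scg2 and 62 in Plk2. On both strands, TGACG, which lies within it, was found in 4 of the 6 windows, against 20.8% of all windows; in Ptgs2 its only match lies 13 bases after the start. The AP-1 motif TGANTCA (7.81% of windows), the Egr motif GCGTGGGCG (0.612%) and the serum response element by its name (1.63%) matched in 0 of the 6. TATAAA (13.6% of windows) and the Mef2 motif by its name (3.19%) each matched in 1, Inhba. These matches describe letters, not bound sites, and the mean log2 ratios of AMA over YMA pools in the genes with the full element were 0.30 for Pcsk1, 0.30 for Scg2 and -0.06 for Plk2.

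Across the 10 genes, 4 were higher in AMA pools (Gem, Inhba, Scg2 and Nptx2), 0 were lower and 6 did not pass (limma, Benjamini-Hochberg adjusted p under 0.05 over all kept probes, two-sided); of all genes tested, 7.34% were called higher and 12.2% lower, and of all kept probes 7.92% and 10.7%. At an adjusted p under 0.01, 0 of the 10 and 0.00557% of genes were higher. Gem and Inhba were at least 1.5-fold higher, as were 0.729% of all genes. The median log2 ratio of AMA over YMA was 0.30 over the 10 genes and -0.03 over all genes; on arrays 1, 2 and 3 the median of the 10 was 0.09, 0.37 and 0.40. In 6 of the 10 (Gem, Nptx2, Inhba, Pcsk1, Scg2 and Ptgs2) all 3 AMA pools lay above all 3 YMA pools, as they did in 16.7% of all genes; all AMA pools lay below all YMA pools in 0 of the 10 and in 26% of all genes. Leaving out an array changed the count: 7 were higher without replicate 1 (Rem2, Pcsk1 and Ptgs2 in addition), 2 without replicate 2 (Gem and Inhba) and 1 without replicate 3 (Gem, limma adjusted p = 0.0457, with Inhba at 0.0515). Each of these fits also called fewer of all kept probes higher than the reported fit did, with counts in the closing section. Median centring left 2 higher (Gem and Inhba) and made 4 lower (Vgf, Scg2, Nrn1 and Plk2), and moved the median of the 10 to -0.07, or 0.33 above that of all genes. Under it most of all kept probes were called lower, with the counts in the closing section. In bulk RNA, a change in how many cells of a type were present and a change in the RNA made per cell cannot be told apart.

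**Figure D1:**
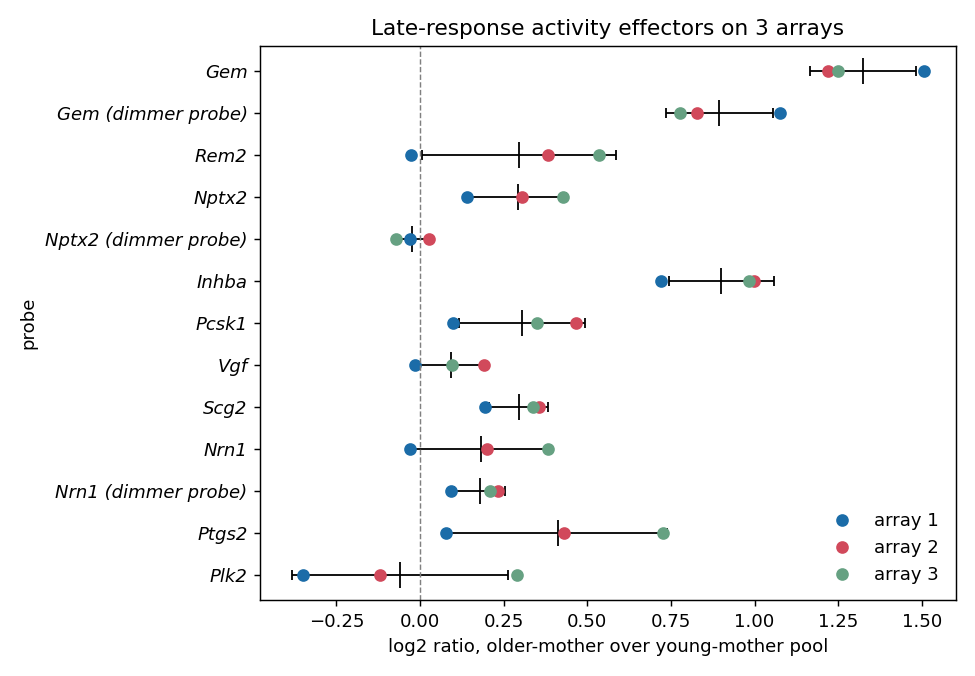
Log2 ratio of the AMA over the YMA pool (x axis) for each of the 13 probes (y axis), with 1 point per array, the mean as a tick and the SD as a bar (n = 3). Gem lies between 1.22 and 1.51 and Inhba between 0.72 and 1.00, and Plk2 spreads from -0.35 to 0.29 across 0.

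**Figure D2:**
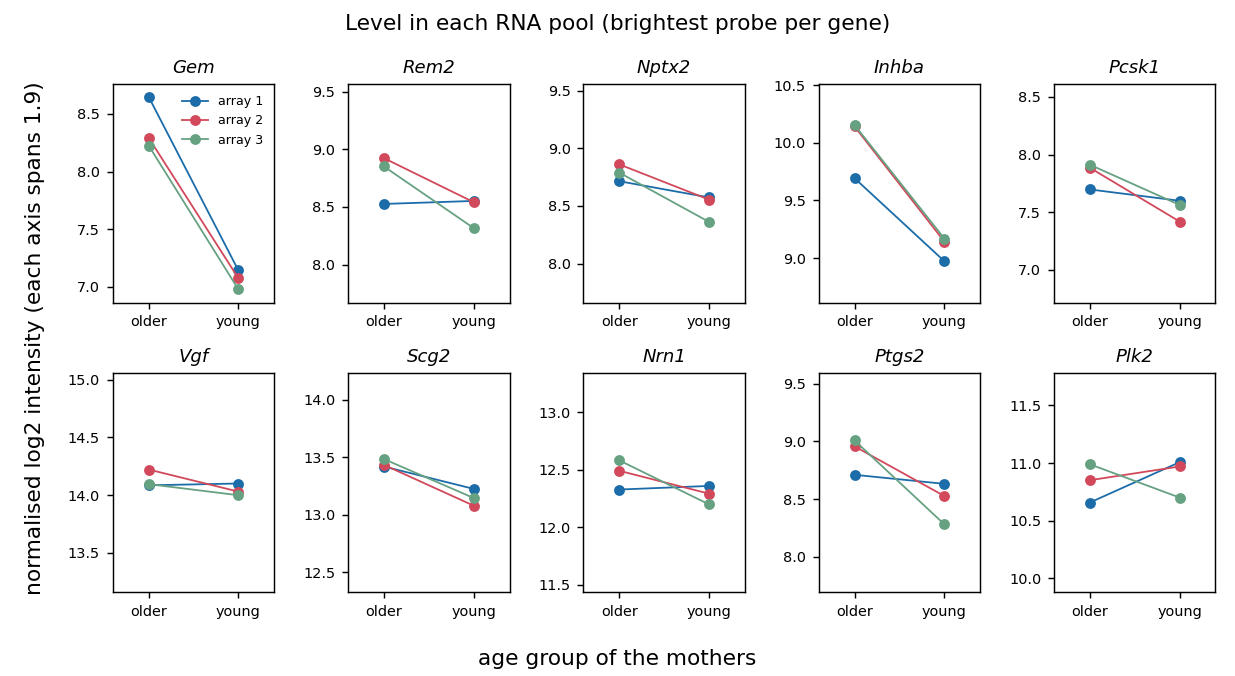
Normalised log2 intensity of the brightest probe of each gene in each pool, AMA (older mothers) left and YMA (young mothers) right, with a line joining the pools of 1 array; every axis spans the same number of log2 units. The AMA pools of Gem lie between 8.23 and 8.65, above the YMA pools at 6.98 to 7.14, and for Plk2 the lines cross.

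**Figure D3:**
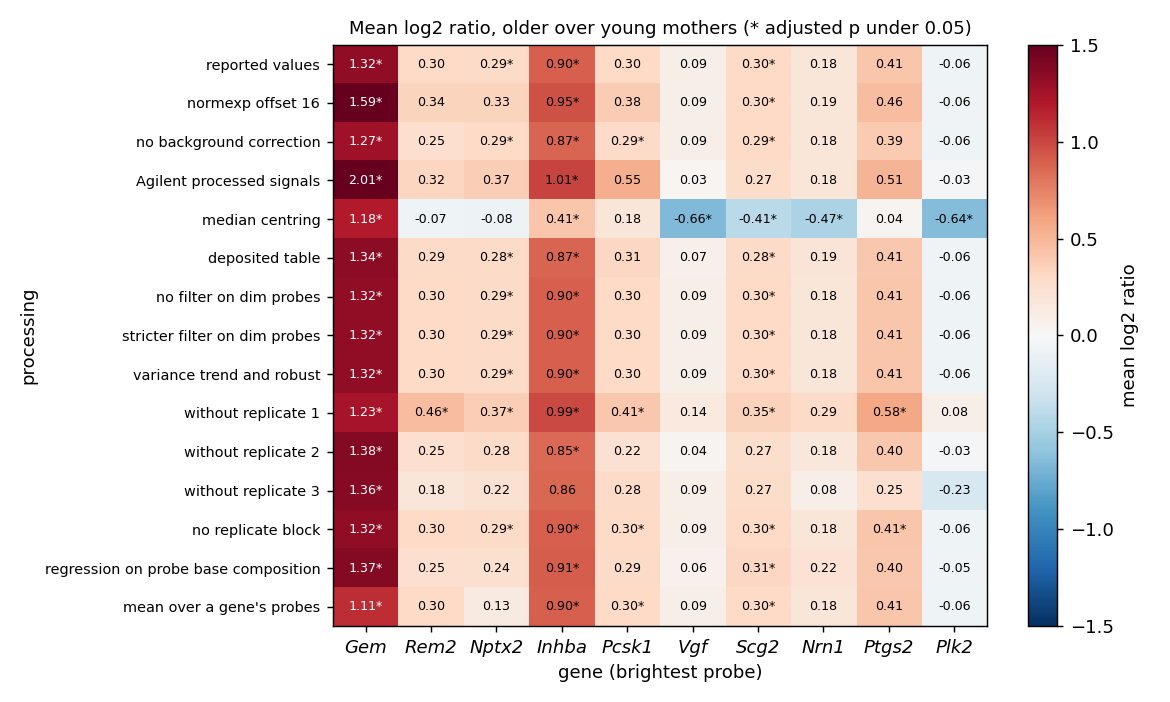
Mean log2 ratio of AMA over YMA pools for the brightest probe of each gene (x axis) under each processing (y axis), by colour and number, with a star where the limma adjusted p is under 0.05. Gem keeps its star in every row and Inhba in all but the fit without replicate 3 (0.86). Median centring turns Nptx2 to -0.08 and Scg2 to -0.41, and there the median of all genes also lies below 0.

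Gem and Rem2 are RGK proteins, small GTPases that bind calcium channel beta subunits and lower calcium current through voltage-gated channels; Gem also acts on the cytoskeleton, and Rem2 is known to limit dendrite branching. Gem had normalised log2 intensities of 8.65, 8.29 and 8.23 in AMA pools, against 7.14, 7.07 and 6.98 in YMA pools. All AMA pools were above all YMA pools by more than the spread within either group. The ratio of 2.50-fold (log2 1.32 ± 0.16, SD, n = 3; 95% interval 2.22 to 2.83-fold) passed the test with an adjusted p of 0.0113 by limma, and ranked 9 of 17964 genes from the highest down.

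A second Gem probe sits further along the same transcript. The middle 30 bases of the brighter probe (chr4:11641692-11641751 on mm9, the build of the array files, plus strand) and a 30-base stretch of the dimmer one (chr4:11642081-11642140) are shown because the probes read different stretches of 1 gene; AATAAA, the signal for polyadenylation, is in capitals.
Gem, brighter probe: gcttcttgtatgccacagctgaattatatt
Gem, dimmer probe: gatttggggtcaAATAAAgctgagctagaa
The dimmer probe gave log2 ratios of 1.08, 0.83 and 0.78 (mean 0.89 ± 0.16, SD, n = 3; 1.86-fold; adjusted p = 0.0124 by limma). Its Cy5 signal, which holds the YMA pools, was well above background on 1 of 3 arrays, so it passed the filter through the AMA channel. Both Gem probes put array 1 highest.

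Rem2 (chr14:55098859-55098918) did not pass. Its log2 ratios were -0.03, 0.38 and 0.53 (0.30 ± 0.29, SD, n = 3; 95% interval 0.02 to 0.57; adjusted p = 0.112 by limma). Array 1 showed next to no difference and the pools of the groups overlapped. Of the other 14 measured RGK GTPases and voltage-gated calcium channel subunits, 1 rose, 1 fell and 12 did not pass, with a median log2 ratio of -0.02. Among those that did not pass, Rem1, Rrad and Cacna1b were above background in Cy3 on 2, 0 and 1 of 3 arrays. They passed the filter only through the YMA channel, and the RGK GTPases Rem1 and Rrad stood at -0.11 and -0.12. Cacnb1, a beta subunit of the kind that RGK proteins bind, was lower, at log2 -0.26 ± 0.09 (SD, n = 3; limma adjusted p = 0.0316). Cacnb4, another beta subunit, was higher at log2 0.19 ± 0.05 (SD, n = 3, limma adjusted p = 0.0429). It stood at -0.34 when arrays were centred on their median in place of the loess curve, or 0.06 above the median of all genes there. Of 14 fits, Cacnb1 was called lower in 10 and Cacnb4 higher in 5. Without replicate 3, 0 genes of this list other than Gem were called, and 0 of the lists that follow other than first-wave genes.

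Inhba encodes the activin beta A chain, whose dimer is activin A, a secreted ligand of the TGF-beta family that acts through type II and type I receptors and Smad proteins and is known to protect hippocampal neurons. Its probe (chr13:16118634-16118693) had normalised log2 intensities of 9.69, 10.14 and 10.15 in AMA pools, against 8.97, 9.14 and 9.17 in YMA pools. The groups did not overlap, and on both sides of the comparison the pool of array 1 was the lowest. Inhba was 1.87-fold higher in AMA pools (log2 0.90 ± 0.16, SD, n = 3; 95% interval 0.73 to 1.07; adjusted p = 0.0124 by limma) and ranked 47 of 17964 genes. Its probe is shown because its ratio was the next highest of the 10 after Gem.
Inhba, bases 16 to 45 of the probe: agaaacagttctttgtcagcttcaaggaca

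Of 15 other measured genes of the activin pathway, 2 rose, 3 fell and 10 did not pass, with a median log2 ratio of -0.07. Over all genes tested, 7.34% were called higher and 12.2% lower. Inha, the inhibin alpha chain that pairs with a beta chain to oppose activin, was lower, at log2 -0.44 ± 0.10 (SD, n = 3; limma adjusted p = 0.0162). Inhbb, the beta B chain, was lower, at log2 -0.37 ± 0.10 (SD, n = 3; limma adjusted p = 0.0195). Fst, Fstl3 and Acvr1, the other called genes of the list, are named after their values were seen. Fst, follistatin, which binds and neutralises activin, was higher at log2 0.32 ± 0.12 (SD, n = 3). Fstl3, a follistatin-like binding protein, was lower at log2 -0.23 ± 0.05 (SD, n = 3). Under median centring Fst stood at 0.12 (limma adjusted p = 0.0959) and Fstl3 at -0.27. Both lay above the median of all genes there, by 0.52 and 0.13. The type I receptor Acvr1 was higher at log2 0.21 ± 0.04 (SD, n = 3) on its brightest probe but at -0.43 under median centring, and 2 other Acvr1 probes gave 0.12 and -0.25. Over 14 fits, the calls kept their direction in 13 for Inha, 12 for Inhbb, 11 for Fstl3, 9 for Fst and 8 for Acvr1. These fits include median centring, where most probes were called lower, which favours the lower calls.

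Nptx2, also called Narp, is a secreted pentraxin that gathers AMPA receptors at excitatory synapses onto interneurons. Its brighter probe read 8.71, 8.86 and 8.79 on the normalised log2 intensity scale in AMA pools, against 8.57, 8.55 and 8.36 in YMA pools. The groups did not overlap, and the gap was narrowest on array 1. The log2 ratio was 0.29 ± 0.14 (SD, n = 3; 1.22-fold; 95% interval 0.13 to 0.46; limma adjusted p = 0.0392), but -0.08 under median centring, where the median of all genes was -0.40. The base-composition regression gave an adjusted p of 0.0633 and the offset of 16 gave 0.0539. Agilent's processed signals gave 0.0773 and the mean over its probes 0.0993.

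The 2 Nptx2 probes lie close together on the gene and disagreed, and their middle 30 bases are shown for that reason.
Nptx2, brighter probe, chr5:145317905-145317964: gttcatttgcagcttctacaacaatcccca
Nptx2, dimmer probe, chr5:145317727-145317786: gtctgagggaactgcagctgctggaaggcc
The dimmer probe gave log2 ratios of -0.03, 0.03 and -0.07 (mean -0.03 ± 0.05, SD, n = 3; 95% interval -0.14 to 0.09; limma adjusted p = 0.710). Its Cy3 signal passed the background flag on 1 of 3 arrays and its Cy5 signal on all 3. The part of its dim Cy3 signal in the disagreement was not tested. Of the 5 other measured pentraxins and AMPA receptor subunits, 0 rose, 1 fell and 4 did not pass, with a median of 0.07. Gria4, an AMPA receptor subunit, was lower, at log2 -0.27 ± 0.03 (SD, n = 3; limma adjusted p = 0.0213), while its other probe gave 0.20 ± 0.14. The call on the brighter probe was kept in 11 of 14 fits.

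Pcsk1, Vgf and Scg2 belong to the dense-core vesicle. Pcsk1 is prohormone convertase 1/3, which cuts peptide precursors, and Vgf and Scg2 are granin-type precursors whose fragments act as neuropeptides. Scg2 (chr1:79431323-79431382, minus strand) read 13.42, 13.43 and 13.48 on the normalised log2 intensity scale in AMA pools, against 13.23, 13.08 and 13.15 in YMA pools. The groups did not overlap, and this was the smallest spread between arrays among the 4 called genes. Scg2 was 1.23-fold higher (log2 0.30 ± 0.09, SD, n = 3; 95% interval 0.16 to 0.43; limma adjusted p = 0.0252), but at -0.41 under median centring, where the median gene stood at -0.40, and its adjusted p was 0.0660 on Agilent's processed signals.

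Pcsk1 (chr13:75269727-75269786) read 7.70, 7.89 and 7.91 in AMA pools, against 7.60, 7.42 and 7.56 in YMA pools, on the same scale. The pools did not overlap, and array 1 again had the smallest gap. The log2 ratio of 0.30 ± 0.19 (SD, n = 3; 1.24-fold; 95% interval 0.11 to 0.50) just missed the threshold, with an adjusted p of 0.0512 by limma and 0.0501 on the authors' deposited log2 ratios. Vgf (chr5:137509153-137509212) had log2 ratios of -0.02, 0.19 and 0.10. Its pools overlapped, and the mean of 0.09 ± 0.10 (SD, n = 3) did not pass, with a 95% interval of -0.05 to 0.23 and an adjusted p of 0.278 by limma.

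Of the 13 other measured granins and vesicle-processing genes, 0 rose, 2 fell and 11 did not pass, with a median of -0.03. Chgb, the granin chromogranin B, was lower, at log2 -0.28 ± 0.08 (SD, n = 3; limma adjusted p = 0.0250). Pcsk1n, proSAAS, an inhibitor of the convertase that Pcsk1 encodes, was lower, at log2 -0.18 ± 0.05 (SD, n = 3; limma adjusted p = 0.0454). Its call was kept in 5 of 14 fits, with an adjusted p of 0.115 on processed signals and 0.101 to 0.195 with a replicate left out, and that of Chgb in 10.

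Nrn1, neuritin, is a small protein anchored to the outer face of the cell membrane that supports neurite growth and synapse maturation. Its brighter probe (chr13:36817941-36818000, minus strand) gave log2 ratios of -0.03, 0.20 and 0.38 (0.18 ± 0.21, SD, n = 3; 95% interval -0.03 to 0.39; adjusted p = 0.170 by limma), and the pools overlapped. Its dimmer probe (chr13:36822427-36822486), assigned to a predicted RefSeq transcript, gave 0.09, 0.23 and 0.21 (0.18 ± 0.08, SD, n = 3; limma adjusted p = 0.0610), and its pools did not overlap. The means of the probes were alike and neither passed. The relative Nrn1l had a log2 ratio of -0.12 ± 0.16 (SD, n = 3) and did not pass.

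Ptgs2 is cyclooxygenase 2, which makes the precursor of the prostaglandins and in forebrain neurons is induced by synaptic activity. It had 10 spots per array (chr1:151954744-151954803), which share the labelling and hybridisation of their array. Usable spots gave log2 ratios of -0.04 to 0.17 on array 1, 0.33 to 0.53 on array 2 and 0.64 to 0.78 on array 3, and these ranges did not meet. The SD among spots of 1 array was 0.061, 0.065 and 0.047, and the SD between the arrays, each with its own pair of pools, was 0.325. The mean of 0.41 ± 0.32 (SD, n = 3; 1.33-fold; 95% interval 0.11 to 0.72) did not pass, with an adjusted p of 0.0689 by limma. Its pools read 8.71, 8.96 and 9.01 on the normalised log2 intensity scale in AMA mice, against 8.63, 8.53 and 8.28 in YMA mice. They did not overlap.

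Of the 11 other measured prostaglandin genes, 1 rose, 3 fell and 7 did not pass, with a median of 0.01. Ptgds, the prostaglandin D synthase made in meninges, choroid plexus and oligodendrocytes, was lower, at log2 -0.39 ± 0.06 (SD, n = 3; limma adjusted p = 0.0161). The exporter Abcc4 was lower, at log2 -0.41 ± 0.16 (SD, n = 3; limma adjusted p = 0.0235). The receptor Ptger1, at log2 -0.41 ± 0.11 (SD, n = 3; limma adjusted p = 0.0183), was above background in Cy3 on 2 of 3 arrays and so passed the filter only through the YMA channel, where it is high. Its call was lost on processed signals (limma adjusted p = 0.231) and under median centring (log2 -0.083, limma adjusted p = 0.197), where it stood 0.32 above the median of all genes. Over 14 fits, the calls kept their direction in 12 for Ptgds, 11 for Abcc4 and 10 for Ptges3, and over 13 fits in 8 for Ptger1. Ptges3, a co-chaperone also known as a prostaglandin E synthase and named after its value was seen, was higher at log2 0.43 ± 0.19 (SD, n = 3). Under median centring Ptges3 stood at -0.24, or 0.16 above the median of all genes there. Its other probes gave 0.39, 0.12 and 0.21, and of these only the probe at 0.39 passed. Of 8 leptomeningeal fibroblast markers 5 fell, with summed levels of 6008 to 9595 intensity units in AMA pools and 7954 to 9873 units in YMA pools. Of 10 choroid plexus markers 3 fell, with a list median of log2 -1.07 against -0.41 for the leptomeningeal list, and summed levels of 9573 to 69050 units in AMA pools and 79120 to 115900 units in YMA pools. The part of either marker list in the Ptgds value was not tested.

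Plk2 is a polo-like kinase that weakens and removes spines after prolonged activity by acting on the spine proteins SPAR and RasGRF1. Its probe (chr13:111190915-111190974) gave log2 ratios of -0.35, -0.12 and 0.29. The arrays differed in sign, the pools overlapped and the mean of -0.06 ± 0.32 (SD, n = 3) did not pass, with a 95% interval of -0.36 to 0.24 and an adjusted p of 0.741 by limma. Of 8 other measured polo-like kinases and spine partners, 2 rose, 0 fell and 6 did not pass, with a median of 0.03. Both were small GTPases of the Rap family: Rap1a was higher at log2 0.23 ± 0.07 and Rap2a at 0.21 ± 0.06 (SD, n = 3 each), but they stood at -0.12 and -0.41 under median centring, and were called higher in 9 and 6 of 14 fits.

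**Figure D4:**
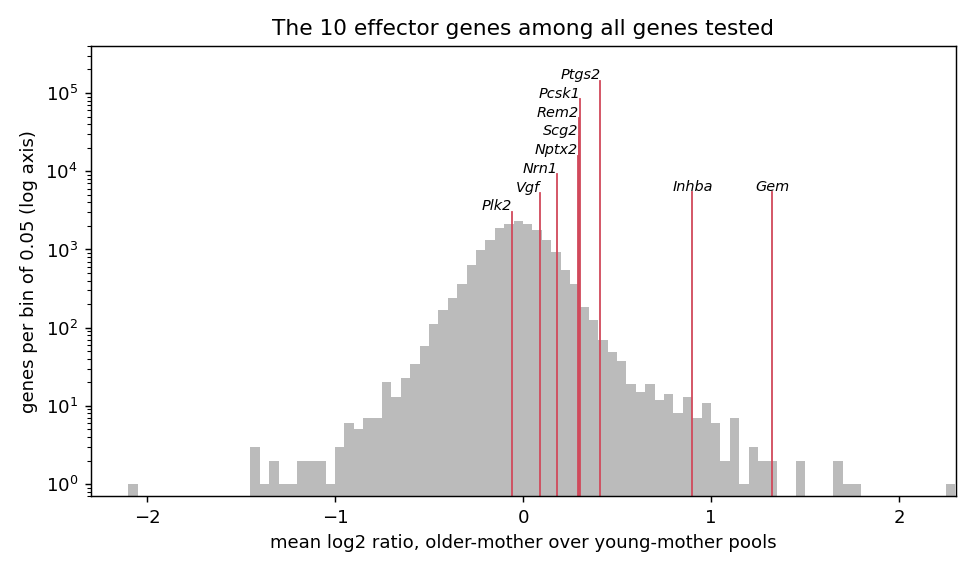
Histogram of the mean log2 ratio of AMA over YMA pools for 17964 genes (x axis) with the number of genes per bin on a log axis, and a red line for each of the 10 genes. Gem and Inhba lie far to the right at 1.32 and 0.90, and 7 of the others lie between 0.09 and 0.41.

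The upstream genes of the same response were read from lists. Of 24 first-wave activity genes, 17 were higher in AMA pools, 0 lower and 7 did not pass, with a median log2 ratio of 0.52. Under median centring, where most kept probes were called lower, 14 were higher and 4 lower, and without replicate 3, 8 were higher. Maff, a small basic leucine zipper factor, was higher at log2 0.98 ± 0.14 (limma adjusted p = 0.0117). Npas4, a neuronal activity factor, was higher at log2 0.98 ± 0.16 (limma adjusted p = 0.0124). Gadd45g, a growth-arrest and stress gene, was higher at log2 0.75 ± 0.08 (limma adjusted p = 0.0124, SD, n = 3 for each of the 3 genes). Under median centring Gadd45g stood at log2 0.11 with a limma adjusted p of 0.147, or 0.51 above the median of all genes there. That the first-wave genes were high was known when this list was made, so it is no independent support.

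Of 22 other activity-induced effectors, 8 were higher, 0 lower and 14 did not pass, with a median of 0.21. Under median centring, where most kept probes were called lower, 2 were higher and 15 lower. Without replicate 3 there were 0 higher and without replicate 2, 3 higher. Homer1, Dclk1 and Rgs4, named after their values were seen, did not pass on their brightest probes, at -0.09, 0.10 and 0.25. Other probes gave 0.53, 0.06, 0.45 and 0.62 for Homer1, 0.42, 0.59 and 0.23 for Dclk1 and 0.58 for Rgs4. Of these, 0.06 for Homer1 (limma adjusted p = 0.395) and 0.23 for Dclk1 (0.0733) did not pass, and the others did. Cdkn1a, a cell-cycle inhibitor, was higher at log2 1.30 ± 0.37 (limma adjusted p = 0.0148). The protocadherin Pcdh8 was higher at log2 0.53 ± 0.09 (limma adjusted p = 0.0142) and the clock gene Per1 at 0.47 ± 0.13 (limma adjusted p = 0.0170, SD, n = 3 each). Pcdh8 and Per1 stood at -0.09 and -0.14 under median centring, or 0.31 and 0.26 above the median of all genes there. Another Per1 probe gave -0.13. Of 29 calcium and CREB signalling genes, 2 rose, 1 fell and 26 did not pass, with a median of -0.02. Camk4, a calmodulin kinase that phosphorylates CREB, was lower on its brightest probe, at log2 -0.29 ± 0.03 (limma adjusted p = 0.0195). Its other probes gave -0.06 and -0.14, and neither passed. Crem, a CREB relative with an inducible repressor form, was higher at log2 0.38 ± 0.05 (limma adjusted p = 0.0161) and the kinase Map2k1 at 0.20 ± 0.06 (limma adjusted p = 0.0447, SD, n = 3 each), but they stood at -0.02 and -0.49 under median centring. Of 14 fits, the call was kept in 12 for Camk4, 11 for Crem and 6 for Map2k1.

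**Figure D5:**
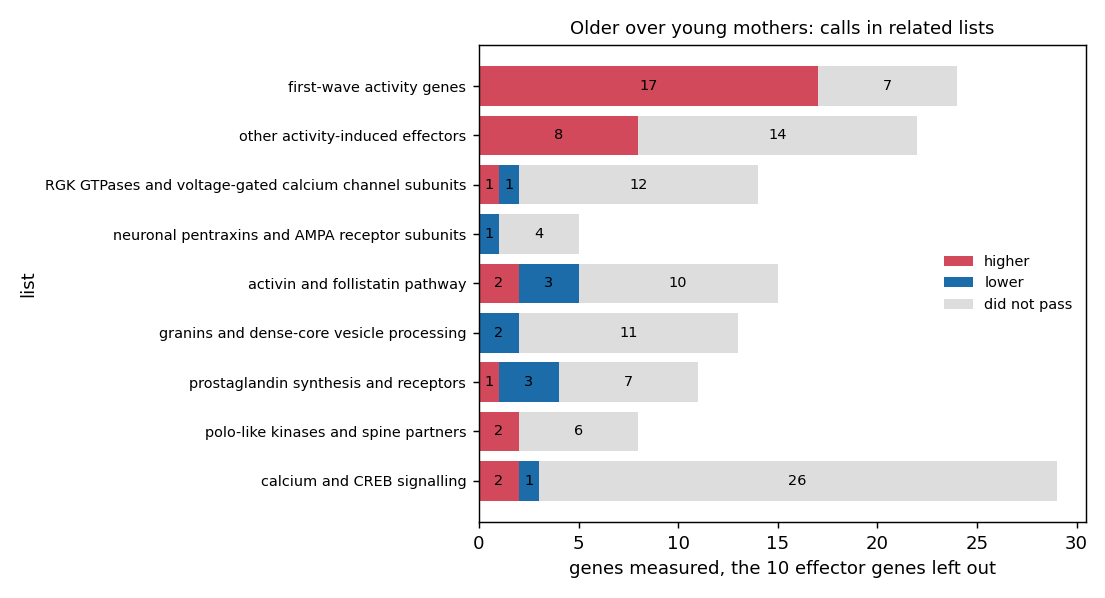
Number of measured genes in each related list, without the 10 genes, that were higher in AMA pools, lower in AMA pools or did not pass (x axis, genes; limma adjusted p under 0.05). First-wave genes hold the most calls, with 17 of 24 higher (14 higher and 4 lower under median centring), and 26 of 29 calcium and CREB signalling genes did not pass.

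The labelled tissue was checked against markers. All 10 CA1 markers, 9 of 10 CA2 and CA3 markers and 8 of 10 dentate granule cell markers were above the filter, with calls in 0, 0 and 1 of those measured (Calb1 higher at log2 0.24, but -0.29 under median centring). Of 10 interneuron markers 2 fell (Slc32a1 at -0.36, Cck at -0.25), and of 10 markers of neighbouring tissue 1 fell (Tbr1 at -0.22). Summed levels of CA2 and CA3 markers were 36120 to 37330 intensity units in AMA pools and 38540 to 40660 units in YMA pools. For interneuron markers they were 143400 to 153000 and 165800 to 168200 units, and for neighbouring tissue 10690 to 10820 and 11740 to 12070 units. In these lists and choroid plexus the AMA range lay below the YMA range, and in the other marker lists the ranges overlapped. Among 8 markers each, 1 astrocyte marker was higher (Gfap at 0.48, but -0.15 under median centring), and 0 oligodendrocyte markers were called. Of 8 microglial markers 1 was higher and 1 lower (C1qa at 0.31, but -0.25 under median centring, and Cx3cr1 at -0.46). Of 8 endothelial markers 1 was higher and 2 lower (Flt1 at 0.38, but -0.24 under median centring, and Cldn5 at -0.63). Of 8 blood markers 3 were higher and 1 lower (S100a9 at 1.19, Ptprc at 0.26). The other higher one, S100a8, named after its value was seen, was above background in Cy5 on 2 of 3 arrays and passed the filter only through the AMA channel, where it is high. Leptomeningeal markers included Ogn at -0.40 and Fmod at -0.36. Of 10 choroid plexus markers 3 fell (Slc4a5 at -0.65, Sostdc1 at -1.24; 6 without replicate 2), with list medians of -0.85, -2.07 and -0.37 on arrays 1, 2 and 3 and the summed levels given above. Relative to the median of all genes under median centring, Calb1 stood at 0.11, Gfap at 0.25, C1qa at 0.15 and Flt1 at 0.16. Other probes gave 0.28 and -0.16 for Gfap, 0.18 and -0.09 for Flt1, and -0.34 and -0.04 for Cx3cr1. They gave 0.26 for Calb1, -0.13 for Slc32a1, -0.17 for Tbr1, -0.35 for Slc4a5 and -0.94 for Sostdc1. Of these probes, 0.28 for Gfap, -0.34 for Cx3cr1 and -0.94 for Sostdc1 passed, and the others did not. Values in this paragraph other than levels are log2 ratios, and without replicate 3, 0 of the markers were called. The part of these markers in the 10 genes' values was not tested.

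The 10 genes also shared an order of arrays, noticed after their values were seen and given as a description. In 9 of the 10, all but Gem, the lowest ratio was on array 1, as it was in 36.5% of all genes tested and in 41.5% of the 1318 genes called higher. Of the 22 other activity-induced effectors, 15 were lowest on array 1, with medians of 0.03, 0.27 and 0.28 on arrays 1, 2 and 3. Of the 24 first-wave genes, 6 were lowest on array 1 and 16 on array 3, with medians of 0.54, 0.55 and 0.47. Some marker lists also moved by array. Of 10 CA1 markers, 8 were lowest on array 1, with medians of -0.10, 0.14 and 0.14. Their summed levels were 22720 to 26740 intensity units in AMA pools and 24420 to 25450 units in YMA pools. Of 8 dentate granule cell markers, 6 were highest on array 1, with medians of 0.25, -0.07 and -0.09 and summed levels of 17220 to 18900 units in AMA pools and 16450 to 18140 units in YMA pools. Of 9 CA2 and CA3 markers, 4 were lowest on array 1, with medians of -0.09, 0.02 and -0.01. Of 10 interneuron markers, 7 were lowest on array 1, and of 8 oligodendrocyte markers, 6 were highest there. The part of these markers in the array order of the 10 genes was not tested.

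The genes nearest to the 3 array medians of the group, by Euclidean distance over the 3 log2 ratios among 15521 named genes outside it, were C1ql3, Lrrc1, Ints8, Phactr3 and Cdc42se1. C1ql3, a secreted C1q-like protein of synapses, had log2 ratios of 0.08, 0.38 and 0.39 at a distance of 0.021. The others lay at distances of 0.027, 0.028, 0.040 and 0.056, in that order. With 3 arrays, the likeness describes these arrays only.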

How the data were processed

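Total RNA pools were hybridised to 3 two-colour Agilent arrays on 1 slide, scanned once, which leaves no batch to fit. The scanner files (Agilent Feature Extraction 10.10.1.1, build mm9, per the file headers) hold spot and background intensity values, and processed intensity values corrected for background and dye. Their log ratios are log10 values of Cy5 over Cy3, per the file headers, and the spot flags are other values of 0 or 1, per the file headers. The values of the authors' deposited table are log2 ratios, Cy3 over Cy5. Its steps and direction are not given in the sources used here, but normexp and loess on median signals gave the same values within 5.0e-10; its column medians were -0.0054, -0.0051 and -0.0056, and no member probe differed by more than 0.117 from the values reported.

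Mean signals were corrected by normexp (offset 50) and loess (span 0.3) in limma 3.58.1 (R 4.3.3), with weight 0 for control and outlier spots, and spots of a probe were averaged. The offset pulls ratios of dim probes towards 0. A probe was kept if well above background in Cy3 or in Cy5 on all 3 arrays; 11798 were not, and 1 lacked a usable spot. Log2 ratios were tested with an intercept (lmFit, eBayes, two-sided; 2 residual and 3.42 prior degrees of freedom) and Benjamini-Hochberg adjustment over 27630 probes; the fit was tested on simulated data. Pool levels are log2 channel intensities after loess and Aquantile, which gives the arrays 1 distribution of average intensity, and levels of different probes are not compared. Median Cy3 signals over background were 58.0 to 62.3 units and Cy5 signals 153 to 165, with 0 saturated spots; log2 ratios correlated between arrays at 0.50 to 0.70 over probes. The number of arrays limits precision.

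Gene names came from the files, and 1651 symbols were updated through 28025 accessions matched to RefSeq (GRCm38.p6). Probe coordinates are those of the files. The pools of a number share an array, per the labels, so the ratio within an array is the pairing. The members and lists were chosen with earlier results of these data known. From each pathway list up to 3 called genes with the smallest p are named, from each marker list up to 2, and the 5 genes nearest to the members' array medians; genes beyond that rule are marked in the text. Alternatives were an offset of 16, no background correction, Agilent's processed signals, median centring, the deposited table, a robust variance trend, a stricter filter or none, no replicate block, other thresholds, the mean over probes, each replicate left out and, chosen after seeing the data, a regression on probe base composition.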

Additional observations from a re-analysis of the deposited data

How the results depend on the processing

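Of all 27630 probes, 2189 were higher and 2946 lower. Agilent's processed signals gave 1169 and 1449, median centring 5996 and 17006, and leaving out a replicate 29 to 1459 higher and 0 to 1906 lower. Of the 10 genes, 4 were called higher; processed signals gave 2, median centring 2 (with 4 lower), an adjusted p under 0.01 gave 0 (limma; 7 at an unadjusted p under 0.05) and leaving out a replicate 1 to 7. Their median of 0.30 became -0.072 under median centring and 0.24 to 0.39 without a replicate. Median centring turned Rem2 to -0.067, Nptx2 to -0.077 and its dimmer probe to 0.34, Vgf to -0.66, Scg2 to -0.41 and Nrn1 to -0.47. The base-composition regression put the dimmer Nptx2 probe at 0.0058, and leaving out a replicate put Plk2 between -0.23 and 0.085, the highest without replicate 1. The cause of these moves was not tested. With no replicate block, ignoring which pools shared an array, 6 of the 10 were higher (Pcsk1, adjusted p = 0.0294, and Ptgs2, 0.0356, in addition); the dimmer Nrn1 probe passed too (0.0354), and no other call on the 13 probes changed. At an adjusted p under 0.05, Gem kept its direction and its call in all 15 fits, Inhba its direction in all 15 and its call in 14, Scg2 its call, in either direction, in 12 and Nptx2 in 8. Of 44 counts of called genes in the lists, 9 stayed within 1.5 times of the reported count under median centring. That setting is also among the fits counted for list genes, which favours lower over higher calls, as most probes were called lower there. Cy3, which held the AMA pools, was the dimmer channel on every array, and dim probes such as the other Gem and Nptx2 probes rest on signal near background. Egr3, Ier2, Timp1, Ptger3 and Ly6g, list genes that were not called, also passed the filter only through the YMA channel.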
